A study of Mus musculus with 10 samples.

Results

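The genes described here encode the chemokines and the chemokine receptors of the mouse. They were chosen by name, as the protein-coding genes whose symbol is Ccl, Cxcl, Ccr, Cxcr or Ackr followed by a number and at most 1 letter, together with Cx3cl1, Cx3cr1, Xcl1 and Xcr1. The eotaxin genes Ccl11 and Ccl24 were left out by that rule, and Cxcl11 is not a member because the GENCODE M21 annotation lists it as a polymorphic pseudogene. The rule found 57 of the 55335 genes in the count table, 35 for ligands and 22 for receptors, of which 4 are atypical receptors. The rule used names only and no measured value.

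RNA was sequenced from 10 whole mouse mammary tumours in the FVB background, in 2 groups of 5. All 10 grew from mammary epithelial cells of virgin Wap-Myc mice, in which the promoter of a milk protein gene drives Myc, and all had been transduced with pIND21-HPN, an inducible lentiviral construct for hepsin, a serine protease of the cell surface. The cells were transplanted into the mammary fat pads of hosts aged 3 weeks, Myc was induced by 2 pregnancies once the hosts were 8 weeks old, and mice were killed when a tumour reached 1 cm. The DOX group received 2 mg/ml doxycycline in water with 5% sucrose, begun 3 days after transplantation, and the control group received sugar water. Since every tumour carried the construct, the drug itself and the induction of hepsin cannot be told apart in this design. The labels do not say if the tumours grew in separate hosts, so p-values below measure only the spread between these tumours, nor which species' hepsin the construct encodes.

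Chemokines are small secreted proteins that bind G protein-coupled receptors and guide the movement of leukocytes along a gradient. They are sorted by the spacing of their first cysteines into CC, CXC, CX3C and XC families, and most inflammatory ligands share receptors with several relatives, whereas homeostatic ligands such as CXCL12 have few partners. Atypical receptors bind chemokines without signalling through G proteins and remove them or present them, and in mammary tumours ligands can come from the malignant epithelium as well as from stroma, vessels and infiltrating leukocytes.

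Of the 8 members on chromosome 5 that are CXC ligand genes by the naming rule, the CXCR2 ligands Cxcl1, Cxcl2 and Cxcl3 and the CXCR3 ligand Cxcl10 carried an NF-kB motif before their starts. The sequences are shown because these genes are compared below. The windows of Cxcl9, Cxcl13 and Cxcl15 held no match, and Cxcl5 had no RefSeq window to search. Each line gives the 250 bases before the start of the RefSeq transcript (GRCm38.p6, 5′ to 3′ on the strand of the gene). The windows are chr5:90890995-90891244 (plus strand) for Cxcl1, chr5:90903649-90903898 (plus strand) for Cxcl2, chr5:90785851-90786100 (plus strand) for Cxcl3 and chr5:92348890-92349139 (minus strand) for Cxcl10. Capitals mark matches to a common 10-base form of the NF-kB element with its 2 central bases free, and in Cxcl10 also, as the first run of capitals, to the 10-base core of the interferon-stimulated response element, likewise with 2 free central bases.
Cxcl1: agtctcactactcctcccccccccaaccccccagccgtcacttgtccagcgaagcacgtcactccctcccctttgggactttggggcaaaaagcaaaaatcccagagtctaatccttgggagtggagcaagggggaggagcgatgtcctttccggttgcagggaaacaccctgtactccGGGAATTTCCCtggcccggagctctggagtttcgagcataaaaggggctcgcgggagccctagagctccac
Cxcl2: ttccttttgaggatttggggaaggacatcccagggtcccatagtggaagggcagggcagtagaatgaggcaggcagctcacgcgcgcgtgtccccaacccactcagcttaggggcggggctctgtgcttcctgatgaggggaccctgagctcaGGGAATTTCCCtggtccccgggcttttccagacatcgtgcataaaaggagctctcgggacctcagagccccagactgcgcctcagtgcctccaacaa
Cxcl3: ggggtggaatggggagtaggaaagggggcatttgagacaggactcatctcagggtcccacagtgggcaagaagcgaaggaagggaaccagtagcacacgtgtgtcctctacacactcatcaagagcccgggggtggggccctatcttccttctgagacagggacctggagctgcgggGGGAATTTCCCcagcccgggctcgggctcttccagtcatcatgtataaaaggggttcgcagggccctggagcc
Cxcl10: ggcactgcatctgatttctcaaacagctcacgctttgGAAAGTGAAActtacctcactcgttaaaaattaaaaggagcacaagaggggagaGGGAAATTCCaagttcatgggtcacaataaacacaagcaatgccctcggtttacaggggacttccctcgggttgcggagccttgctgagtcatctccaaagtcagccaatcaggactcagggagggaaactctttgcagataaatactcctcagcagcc
Both cores were searched on both strands in windows that also held 50 bases after the start. The NF-kB core occurred in 1.47% of 32851 RefSeq windows and in 6 of the 52 windows of members (11.5%), those of Cxcl1, Cxcl2, Cxcl3, Cxcl10, Ccl1 and Ccr3. In Cxcl1, Cxcl2 and Cxcl3 it lay 71, 97 and 73 bases before the start and overlapped its own match on the other strand, which makes the run of 11 capitals. The plus-strand match was GGGAATTTCC in all 3, and in Cxcl10 the matches were GGGAAATTCC, 159 bases before the start, and GAAAGTGAAA, 213 bases before it. The interferon core occurred in 3.44% of all windows and in those of Cxcl10, Cxcl14 and Ccl19. A match describes the letters and is not evidence that a factor was bound.

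The libraries held 14256948 to 39358457 counts, and all but DOX tumour 3 held at most 20469533. Levels are CPM, read counts scaled to library size with factors from the trimmed mean of M-values, and means are given ± SD over 5 tumours. Hpn, the gene the construct is named for, read 21.7 ± 4.69 CPM in controls and 31.7 ± 8.55 CPM with DOX, a 1.44-fold difference on the log2(CPM + 1) scale (two-sided exact permutation p = 0.0159, 4 of 5 DOX tumours above all controls). That p is for Hpn alone. In the edgeR test over all genes, used for the members below, Hpn had an adjusted p of 0.247 and was not called. Markers of mammary epithelium were abundant in every tumour, summing to 1226 to 1812 CPM over 10 genes in controls and 1253 to 2160 CPM with DOX, although the basal keratin Krt5 ranged from 1.22 CPM in DOX tumour 4 to 194 CPM in DOX tumour 5.

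DOX tumour 5 stood apart for the chemokine genes. Of the 29 members with enough counts to test, 19 had their highest level in it, and no other tumour was highest for more than 3. Their lowest levels fell in control tumours 2 and 4 for 9 genes each. All members together summed to 208 CPM in control tumour 4, 512 CPM in DOX tumour 5 and 263 to 401 CPM in the other tumours. With each gene centred on its mean log2(CPM + 1), the median member stood at 0.65 in DOX tumour 5, 0.31 in control tumour 1 and -0.39 in control tumour 4. DOX tumour 5 also held the highest summed level of 9 of the 12 other gene lists, of epithelial, vascular and immune cells alike. These included mammary epithelium (2160 CPM, against 1226 to 1812 CPM in controls), endothelium (157 CPM, against 115 to 147 CPM), macrophages (727 CPM, against 512 to 679 CPM), interferon response genes (301 CPM, against 103 to 170 CPM) and NF-kB pathway genes (380 CPM, against 189 to 296 CPM). Fold changes of members without this tumour are given below where they differ by more than 1.5 times. Values of the other lists were not computed without it.

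**Figure D1:**
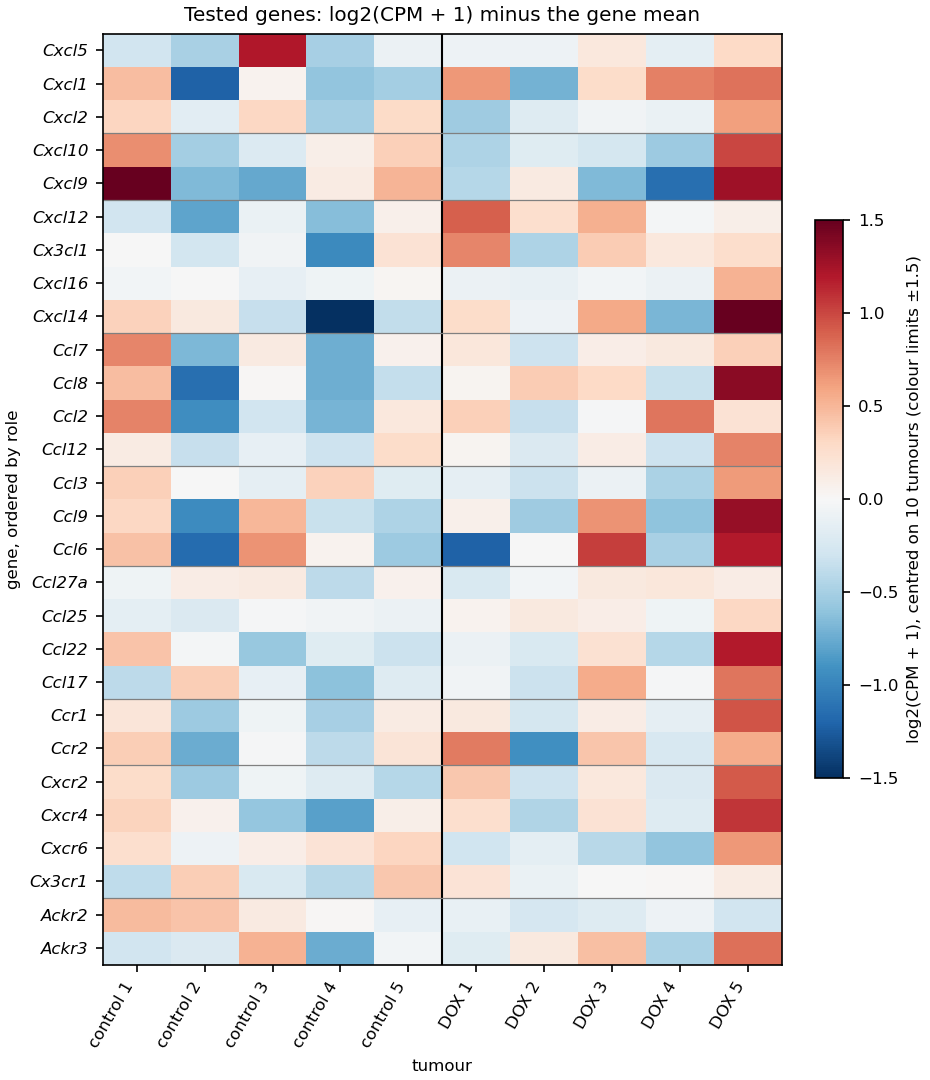
Level of the tested chemokine and receptor genes but 1 (rows, by role) in each tumour (columns, 5 control and 5 DOX), as log2(CPM + 1) centred on the gene's mean over the 10 tumours, with colour running out at 1.5 in either direction. The column of DOX tumour 5 is the reddest, and the columns of control tumours 2 and 4 hold 9 lowest values each.

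Per length of exon, the most abundant member was Cx3cl1, the membrane-bound chemokine fractalkine, at a mean of 25.8 CPM per kb over the 10 tumours. It was followed by Cxcr4, the receptor of CXCL12, at 18.0 CPM per kb, and by Ccl8, a chemokine that draws monocytes, at 14.1 CPM per kb. Cxcl14, an epithelial and stromal chemokine, stood at 11.5, Cxcl16, a transmembrane chemokine, at 9.06, Ccl6 at 5.97, Cx3cr1 at 4.81 and Ccl2 at 3.31 CPM per kb. Cx3cl1 alone made up 22.7 to 40.3% of the summed CPM of all members in a tumour. At the other end, Ccl19, Ccl21b, Ccl26 and Ccl27b had no count in any tumour. Counting error alone allows up to 0.0745 to 0.215 CPM per tumour (3 counts). That limit is not secure for Ccl19, Ccl21b and Ccl27b. Of their 75-base windows, 45.3, 100 and 98.0% also occur in transcripts of other genes.

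**Figure D2:**
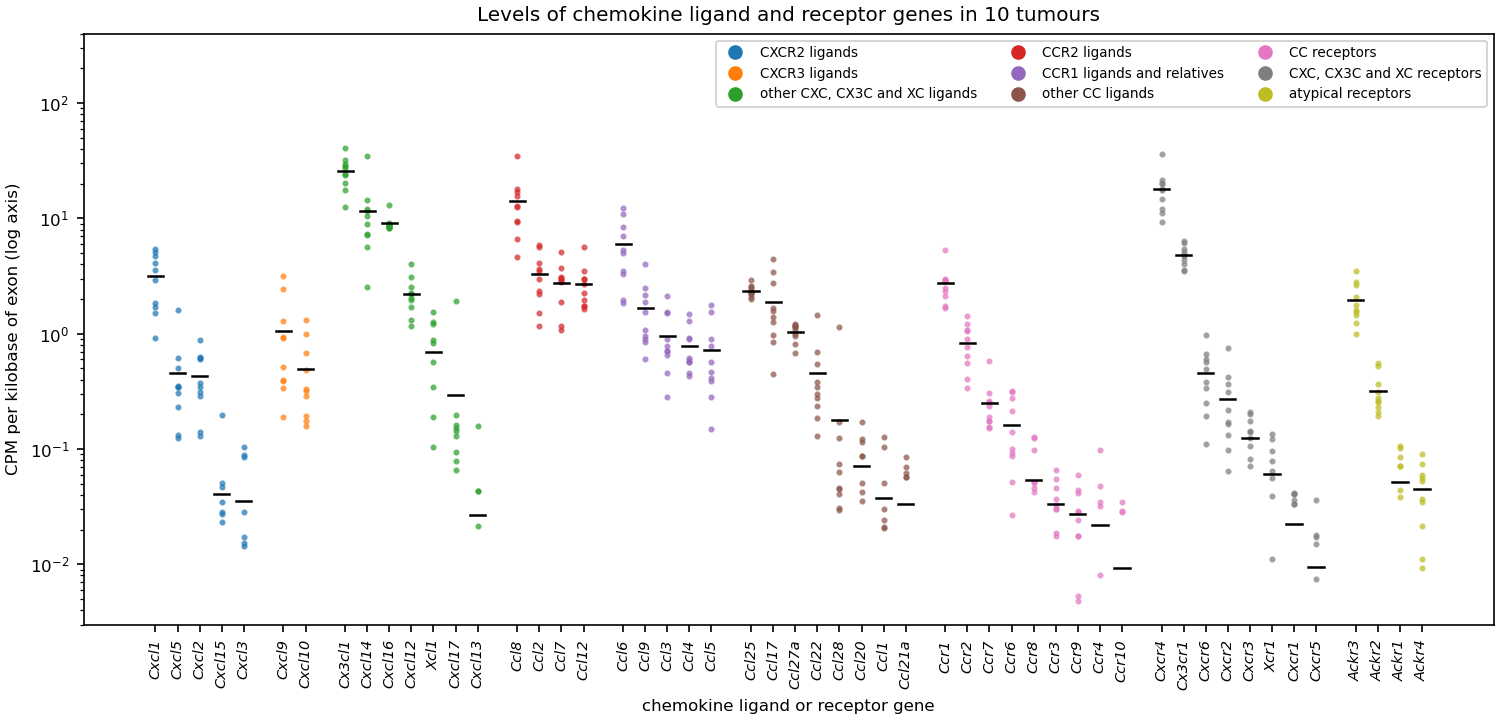
Level of the members with at least 1 count but 1, in CPM per kb of exon on a log axis, grouped by role; points are the 10 tumours, black bars are means over all 10, and tumours at 0 are not drawn. Cx3cl1, Cxcr4 and Ccl8 lead at 25.8, 18.0 and 14.1 CPM per kb, and apart from Cxcr4 the receptors lie below the leading ligands.

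The comparison of DOX with control tumours asked whether chemokine transcripts differ when the construct is induced, and no member passed the test. Of the 57 genes, 29 passed the filter on low counts (20 ligands and 9 receptors), and of these 21 were higher and 8 lower with DOX, with 0 called by edgeR's quasi-likelihood test at an adjusted p under 0.05. Over all 16167 genes tested, the share called was 0%, and 50.5% had a fold change above 0. At an unadjusted edgeR p under 0.05, 3 members stood out, Cxcl12 and Ccl25 higher and Ackr2 lower, which is 10.3% of those tested. The share over all genes was 16%, of which 8.2% were higher and 7.83% lower. No member separated the groups without overlap, against 2.94% of all genes (1.82% higher and 1.13% lower). The members' median log2 fold change was 0.36, and that of all genes was 0.0024. By limma-voom with sample weights, 2 members were called, Cxcl12 higher and Cxcr6 lower, beside 4.79% of all genes. By DESeq2, none of the 21 members with an adjusted p was called, beside 2.22% of all genes. Ligands split into 15 higher and 5 lower (median 0.34), and receptors into 6 higher and 3 lower (median 0.36). Without DOX tumour 5 the members split into 19 higher and 10 lower with a median of 0.07, and without control tumour 4 as well into 15 higher and 14 lower with a median of 0.01. These are the DOX tumour and the control with the most extreme levels, in the direction that raises the median. Without control tumour 1, the control with the highest levels, the split was 22 higher and 7 lower with a median of 0.47. In whole tumours, fewer cells of a type and less RNA per cell cannot be told apart, and this holds for every level below.

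**Figure D3:**
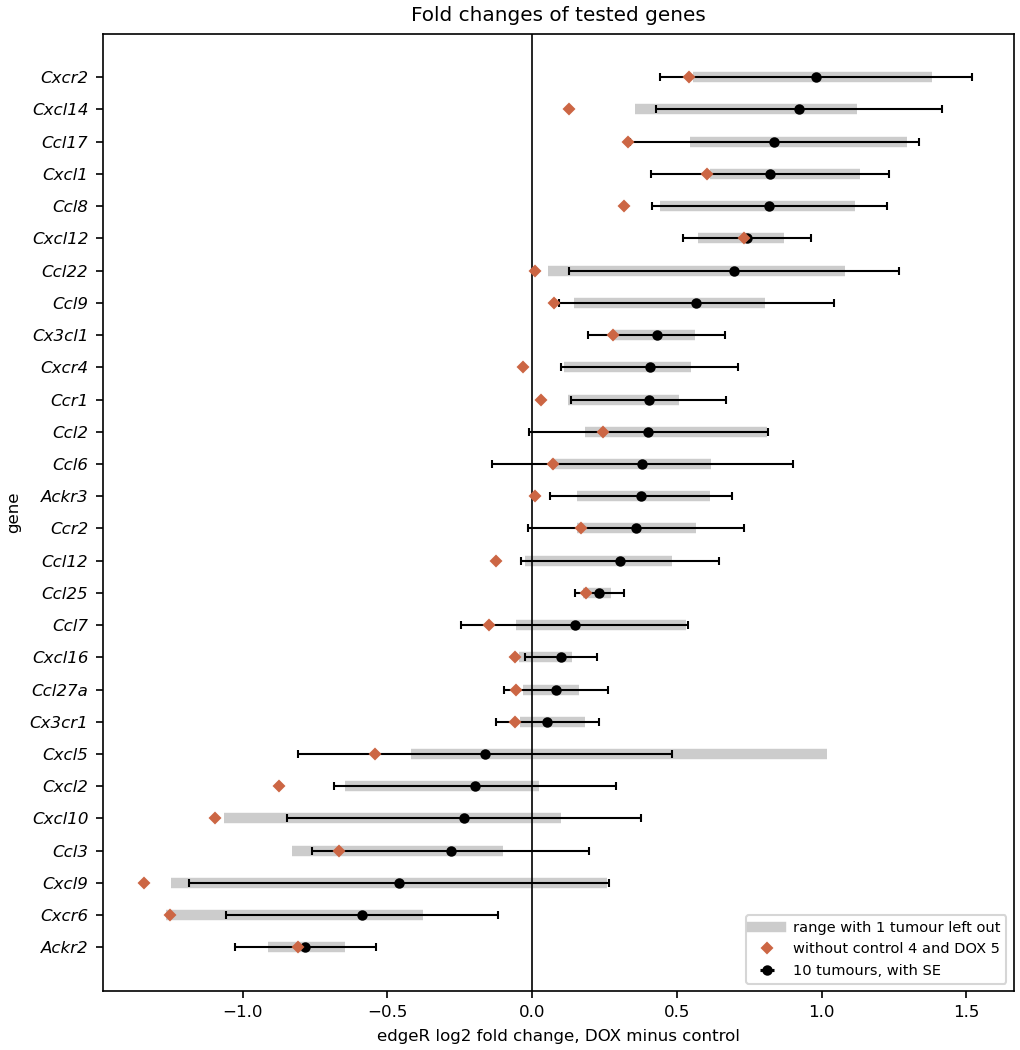
Log2 fold change, DOX over control, of the tested members but 1 in order of size (black points, with bars of 1 standard error from edgeR), with its range when 1 tumour is left out (grey) and its value without control tumour 4 and DOX tumour 5 (orange diamonds). Cxcl12 (0.74) and Ackr2 (-0.78) lie farthest from 0 relative to their errors and hardly move, whereas most other diamonds lie to the left of their points.

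Cxcl12, the homeostatic ligand of CXCR4 that stromal cells make in abundance, had the smallest p among the members. It lies on chromosome 6 (chr6:117168535-117181367, plus strand, ENSMUSG00000061353.11). Its level was 13.9, 9.51, 16.0, 10.7 and 18.1 CPM in control tumours 1 to 5 and 32.9, 20.6, 25.3, 16.7 and 18.3 CPM in DOX tumours 1 to 5. Of the DOX tumours, 4 lay above every control, DOX tumour 5 by a narrow margin, and DOX tumour 4 fell within the control range. The log2 fold change was 0.74 (SE 0.22, 1.67-fold), with an adjusted p of 0.215 by edgeR, 0.0532 by DESeq2 and 0.0488 by limma-voom with sample weights, which alone of the tools called it. Unlike the median of the family, its value did not depend on DOX tumour 5 or control tumour 4, being 0.73 without both and 0.57 to 0.87 with any single tumour left out. Summed fibroblast markers, of a cell type known to make Cxcl12, ran from 133 to 391 CPM in controls and from 287 to 385 CPM with DOX. Of these 8 markers 1 was higher and 7 lower (median -0.66), and none was at 0 in any tumour. Their part in the level of Cxcl12 was not tested.

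Both receptors of CXCL12 were less clear. Cxcr4, which signals and is found on leukocytes and many tumour cells, read 38.8, 31.9, 20.1, 16.9 and 32.5 CPM in controls and 36.6, 22.0, 35.7, 26.6 and 65.1 CPM with DOX. All but DOX tumour 5 lay inside the control range. Its log2 fold change of 0.41 (SE 0.30, edgeR adjusted p = 0.518) became 0.11 without DOX tumour 5 and -0.031 without control tumour 4 as well. Ackr3, the atypical receptor that takes up CXCL12, averaged 5.73 ± 2.23 CPM in controls and 7.41 ± 3.01 CPM with DOX, a log2 fold change of 0.38 (SE 0.32, edgeR adjusted p = 0.565) that became 0.15 without DOX tumour 5.

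Cx3cl1, whose soluble form attracts cells that carry CX3CR1, was the most abundant ligand in both groups. Controls held 96.4, 79.7, 93.4, 49.4 and 112 CPM, and DOX tumours held 162, 69.8, 126, 108 and 116 CPM. The lowest level was in control tumour 4, the highest in DOX tumour 1, and DOX tumour 2 lay below 4 of the controls. The log2 fold change was 0.43 (SE 0.24, edgeR adjusted p = 0.385), and 0.28 without control tumour 4. Its receptor Cx3cr1, a marker of resident macrophages and monocytes, read 16.2, 27.8, 18.1, 15.7 and 28.5 CPM in controls and 24.7, 19.8, 21.1, 21.6 and 23.2 CPM with DOX, so every DOX tumour lay within the control range. The log2 fold change of Cx3cr1 was 0.05 (SE 0.18, edgeR adjusted p = 0.903), and its sign changed when any of 3 control tumours was left out.

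Cxcl14 had the largest log2 fold change among the ligands tested, 0.92 (SE 0.49, edgeR adjusted p = 0.378), and 1 tumour set its size. Control levels were 22.3, 19.3, 13.4, 4.69 and 13.1 CPM, and DOX levels were 21.1, 16.3, 26.2, 10.4 and 64.0 CPM. Without DOX tumour 5 the log2 fold change was 0.36, and without control tumour 4 as well it was 0.13. Krt5 and Krt14, keratins of basal mammary epithelium, were likewise highest in DOX tumour 5, at 194 and 124 CPM. Among the controls they were lowest in control tumour 4, at 3.30 and 7.64 CPM. Over all tumours, however, Krt5 was lowest in DOX tumour 4, where Cxcl14 read 10.4 CPM against 4.69 CPM in control tumour 4. The part of basal cells in the level of Cxcl14 was not tested.

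Cxcl16 varied little among controls, and its receptor Cxcr6 showed a different pattern. Cxcl16, a scavenger receptor and ligand of dendritic cells and macrophages, read 26.4, 27.0, 24.9, 25.8 and 27.8 CPM in controls and 25.4, 25.0, 26.4, 25.5 and 39.4 CPM with DOX. Its log2 fold change of 0.10 (SE 0.12, edgeR adjusted p = 0.703) was -0.046 without DOX tumour 5; 18.3% of its exon bases overlap the opposite-strand gene Zmynd15, whose reads could be counted with it if strand was not used. Cxcr6, a receptor of activated T and natural killer T cells, read 1.17, 0.739, 0.963, 1.10 and 1.29 CPM in controls and 0.486, 0.650, 0.372, 0.215 and 1.87 CPM with DOX. Of the DOX tumours, 4 lay below every control and DOX tumour 5 lay above every control. The log2 fold change of Cxcr6 was -0.59 (SE 0.47, edgeR adjusted p = 0.547), and it was -1.26 without DOX tumour 5 (edgeR adjusted p = 0.299). limma-voom, which gave DOX tumour 5 a weight of 0.677 and DOX tumour 3 one of 4.65, put it at -1.38 with an adjusted p of 0.0428 and called it.

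Markers of T and NK cells, among which Cxcr6 is known, did not pass the test. Of the 14 marker genes 6 were tested, and 1 was higher and 5 lower, the median being -0.44 on the log2 scale. By edgeR 0 were called and 0 had an unadjusted p under 0.05. In at least 1 tumour 7 of the 14 were at 0, among them Cd8b1, Nkg7 and Prf1. Their sum ran from 10.2 to 21.2 CPM in controls and from 7.44 to 19.6 CPM with DOX, highest among the DOX tumours in DOX tumour 5. DOX tumours 2 and 5 lay within the control range and the other 3 DOX tumours below it. Cd3e, a chain of the T cell receptor complex, was 1.18 to 1.68 CPM in controls and 0.432, 1.35, 0.769, 0.143 and 1.87 CPM with DOX. Whether T and NK cells account for the level of Cxcr6 was not tested.

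**Figure D4:**
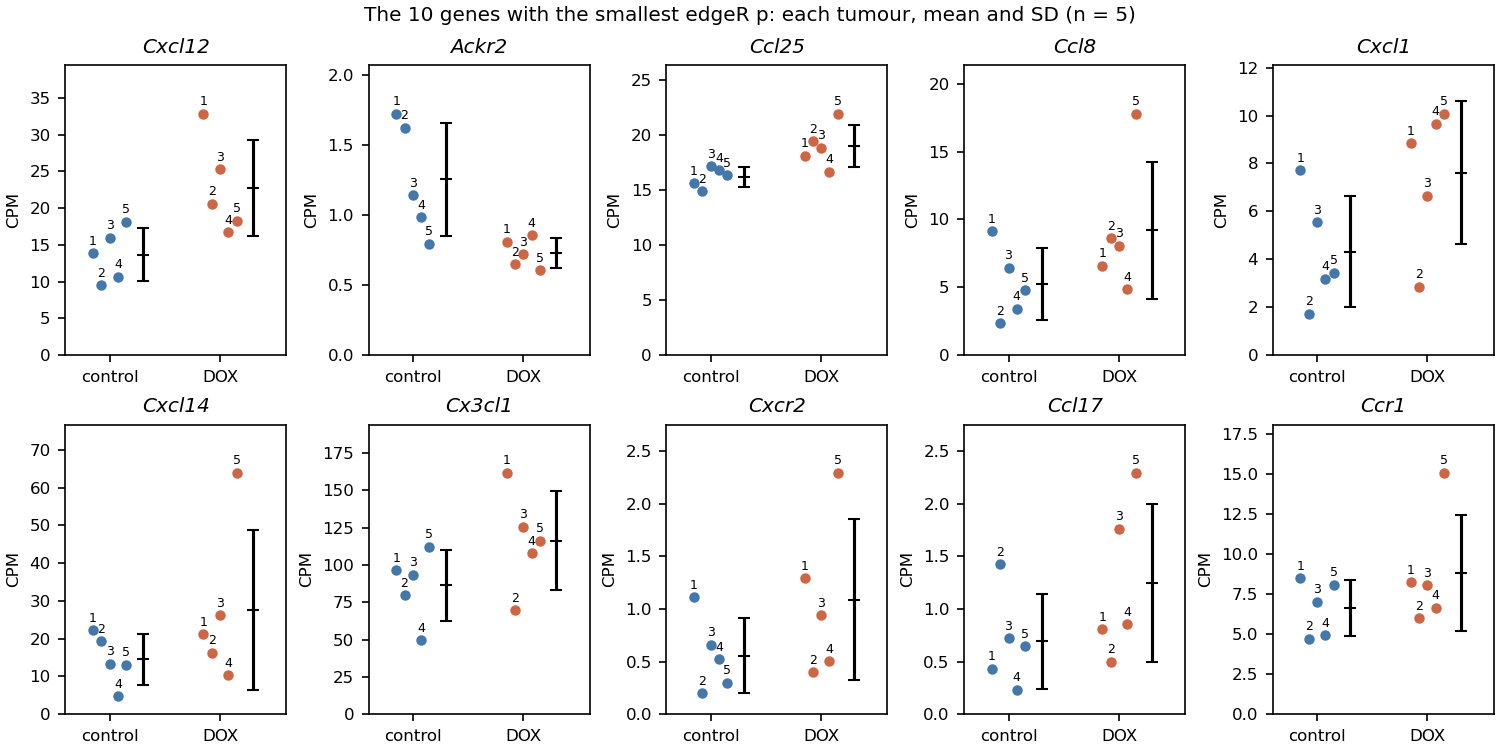
CPM of the 10 members with the smallest p in each tumour, 1 panel a gene with an axis from its own scale; numbered points are tumours (5 control and 5 DOX) and bars are means with SD. Cxcl12 and Ccl25 each have 4 DOX tumours above all controls, Ackr2 has 3 below all controls, and for Cxcl14, Ccl8 and Ccr1 a single DOX tumour lies far above the rest.

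The CXCR2 ligands, which draw neutrophils, did not share a direction although their genes are neighbours. Cxcl1 read 7.71, 1.72, 5.54, 3.19 and 3.43 CPM in controls and 8.85, 2.85, 6.65, 9.66 and 10.1 CPM with DOX. Of the DOX tumours, 3 lay above every control, and the log2 fold change was 0.82 (SE 0.41, edgeR adjusted p = 0.349) and 0.70 without DOX tumour 5. Cxcl2, which carries the same NF-kB core as Cxcl1, read 1.29, 0.641, 1.26, 0.290 and 1.24 CPM in controls and 0.270, 0.600, 0.769, 0.716 and 1.81 CPM with DOX. The log2 fold change of Cxcl2 was -0.20 (SE 0.49, edgeR adjusted p = 0.863), being -0.65 without DOX tumour 5 and 0.022 without DOX tumour 1. Cxcl5 had 3.01 CPM in control tumour 3 and at most 1.15 CPM elsewhere, so its log2 fold change of -0.16 became 1.02 without that tumour, and it was -0.30 without DOX tumour 5. Cxcl3 and Cxcl15 had 28 and 17 counts over all tumours and were not tested.

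Cxcr2, the neutrophil receptor for these ligands, read 1.11, 0.197, 0.662, 0.521 and 0.298 CPM in controls and 1.30, 0.400, 0.943, 0.501 and 2.29 CPM with DOX. DOX tumours 1 and 5 lay above all controls, and the log2 fold change was 0.98 (SE 0.54, edgeR adjusted p = 0.387) and 0.56 without DOX tumour 5. Of 10 neutrophil markers 5 were tested, 3 higher and 2 lower, with the median log2 fold change at 0.01. They summed to 12.2 to 28.6 CPM in controls and 9.52 to 29.2 CPM with DOX, and Ly6g, Camp, Ngp and Retnlg were at 0 in some tumours. Cxcr1 had 7 counts in all.

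The interferon-induced CXCR3 ligands Cxcl9 and Cxcl10, which recruit T and NK cells, varied widely from tumour to tumour. Cxcl9 read 9.56, 1.18, 1.02, 2.78 and 3.93 CPM in controls and 1.57, 2.80, 1.19, 0.572 and 7.37 CPM with DOX, a 16.7-fold range that no other tested member exceeded. Cxcl10 read 2.22, 0.394, 0.722, 1.10 and 1.54 CPM in controls and 0.432, 0.750, 0.645, 0.358 and 2.96 CPM with DOX. For both genes control tumour 1 and DOX tumour 5 held the highest 2 levels and DOX tumour 4 the lowest. Log2 fold changes were -0.46 (SE 0.73, edgeR adjusted p = 0.774) for Cxcl9 and -0.24 (SE 0.61, edgeR adjusted p = 0.870) for Cxcl10, and -1.25 and -1.07 without DOX tumour 5. Without control tumour 1 both changed sign, to 0.26 and 0.10. Their receptor Cxcr3 had 42 counts in all. Of 19 listed interferon response genes 16 were tested, 13 higher and 3 lower, with the median log2 fold change at 0.34, and 0 were called. Their summed level had a median of 132 CPM in controls and 116 CPM with DOX, and was 301 CPM in DOX tumour 5.

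The 4 ligands of the CCR2 group, the monocyte chemoattractants, all had fold changes above 0 and none was called. Ccl8, which in mice is also known as a ligand of CCR8, read 9.12, 2.37, 6.44, 3.42 and 4.77 CPM in controls and 6.59, 8.60, 8.07, 4.87 and 17.8 CPM with DOX. Only DOX tumour 5 lay above all controls, and the log2 fold change of 0.82 (SE 0.41, edgeR adjusted p = 0.345) was 0.44 without it. Ccl2, the main attractant of inflammatory monocytes, read 6.47, 1.33, 2.65, 1.74 and 3.98 CPM in controls and 4.70, 2.50, 3.38, 6.73 and 4.17 CPM with DOX (log2 fold change 0.40, SE 0.41, edgeR adjusted p = 0.642). The groups overlapped nearly in full, and the log2 fold change was 0.81 without control tumour 1, 0.20 without control tumour 2 and 0.18 without DOX tumour 4. Ccl12 and Ccl7, its neighbours on chromosome 11, had log2 fold changes of 0.30 and 0.15, which became -0.024 and 0.052 without DOX tumour 5 and -0.12 and -0.15 without control tumour 4 as well. Ccr2 read 7.09, 2.71, 5.18, 3.76 and 6.11 CPM in controls and 9.72, 2.30, 7.30, 4.29 and 8.15 CPM with DOX, with a log2 fold change of 0.36 (SE 0.37, edgeR adjusted p = 0.646) that was 0.16 without DOX tumour 1.

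Among the ligands of CCR1 and their relatives, the mouse CC chemokine Ccl6 was the most abundant per kb. Ccl6 read 12.7, 3.55, 15.2, 9.50 and 5.92 CPM in controls and 3.35, 9.05, 19.8, 6.23 and 22.0 CPM with DOX, overlapping widely (log2 fold change 0.38, SE 0.52, edgeR adjusted p = 0.732). Without DOX tumour 5 the log2 fold change of Ccl6 was 0.066, and without DOX tumour 3 it was 0.12. Ccl9 had a log2 fold change of 0.57 (SE 0.47, edgeR adjusted p = 0.563), and of 0.14 without DOX tumour 5. Ccl3, a product of activated macrophages, was 1.17, 0.690, 0.542, 1.16 and 0.497 CPM in controls and 0.540, 0.350, 0.596, 0.215 and 1.63 CPM with DOX (log2 fold change -0.28, SE 0.48, edgeR adjusted p = 0.791). The other 4 DOX tumours lay far below DOX tumour 5, and without it the log2 fold change was -0.83. Ccl4 and Ccl5 had 99 and 130 counts and did not enter the test. Ccr1, found on myeloid cells, read 8.51, 4.73, 7.04, 4.92 and 8.10 CPM in controls and 8.26, 6.00, 8.07, 6.65 and 15.1 CPM with DOX (log2 fold change 0.40, SE 0.27, edgeR adjusted p = 0.461). Only DOX tumour 5 exceeded the controls, and without it the log2 fold change was 0.13. Of 12 macrophage and monocyte markers 11 were tested, 8 higher and 3 lower with a median of 0.13, and none was at 0 in any tumour.

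Of the other CC ligands, Ccl25 had the closest values of any tested member, 1.48-fold from lowest to highest tumour. This ligand, known for guiding CCR9-bearing thymocytes and intestinal lymphocytes, lies on chromosome 8 (chr8:4325210-4360020, plus strand, ENSMUSG00000023235.14). Of its exon bases, 2.74% overlap the opposite-strand gene Elavl1, which could affect its counts if strand was not used. Ccl25 read 15.7, 14.9, 17.2, 16.9 and 16.4 CPM in controls and 18.1, 19.5, 18.9, 16.7 and 22.0 CPM with DOX. All DOX tumours but DOX tumour 4 lay above every control, yet the difference was small, with a log2 fold change of 0.23 (SE 0.08, 1.18-fold, edgeR adjusted p = 0.249). Leaving out any single tumour kept it between 0.18 and 0.27. Ccr9, its receptor, had 54 counts in all, averaged 0.287 ± 0.210 CPM in controls and 0.273 ± 0.168 CPM with DOX, and was not tested.

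Ccl17 and Ccl22, ligands of CCR4 made by dendritic cells, flank Cx3cl1 on chromosome 8 (chr8:94745590-94812036 for the 3 genes). Ccl17 read 0.432, 1.43, 0.722, 0.232 and 0.646 CPM in controls and 0.810, 0.500, 1.76, 0.859 and 2.29 CPM with DOX (log2 fold change 0.84, SE 0.50, edgeR adjusted p = 0.417). DOX tumours 3 and 5 lay above all controls, and the log2 fold change was 0.55 without DOX tumour 5 and 1.29 without control tumour 2. Ccl22 reached 3.38 CPM in DOX tumour 5 and had a log2 fold change of 0.70 (edgeR adjusted p = 0.553) that was 0.054 without that tumour, and Ccr4 had 13 counts in all. Of 9 dendritic cell markers 4 were tested, all higher (median log2 fold change 0.27), with sums of 53.3 to 71.3 CPM in controls and 51.2 to 108 CPM with DOX. Clec9a and Cd209a were at 0 in some tumours. Ccl27a, a skin chemokine, had a log2 fold change of 0.08 (-0.032 without control tumour 4), and 33.3% of its 75-base windows also occur in transcripts of other genes, so its counts are uncertain.

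Ackr2, the atypical receptor that scavenges inflammatory CC chemokines, was the only member lower with DOX at an unadjusted p under 0.05. It lies on chromosome 9 (chr9:121898355-121911074, plus strand, ENSMUSG00000044534.8). Its level was 1.73, 1.63, 1.14, 0.985 and 0.795 CPM in controls and 0.810, 0.650, 0.720, 0.859 and 0.604 CPM with DOX. DOX tumours 2, 3 and 5 lay below every control, and the other DOX tumours lay above control tumour 5 alone. The log2 fold change was -0.78 (SE 0.24, edgeR adjusted p = 0.232), from -0.91 to -0.65 with any 1 tumour left out and -0.81 without DOX tumour 5 and control tumour 4. A tumour held only 10 to 33 counts of this gene. Ackr2 is known from lymphatic endothelium, and of 10 markers of endothelium and lymphatic endothelium 8 were tested, 2 higher and 6 lower with a median of -0.36. Those markers summed to 115 to 147 CPM in controls and 97.4 to 157 CPM with DOX, and Lyve1 was at 0 in 1 tumour. Their sum was highest in DOX tumour 5, the tumour with the lowest level of Ackr2. Flt4, the lymphatic receptor for VEGF-C, averaged 10.1 ± 1.86 CPM in controls and 6.94 ± 1.47 CPM with DOX. Their part in the level of Ackr2 was not tested.

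The 28 members outside the test had 0 to 156 counts over all 10 tumours. Ccr7, the receptor that takes dendritic and T cells to lymph nodes, was 0.301 to 0.463 CPM in controls and 0.378 to 1.15 CPM with DOX, with 4 of 5 DOX tumours above every control. Ccl28, a mucosal ligand made by mammary epithelium in lactation, reached 5.56 CPM in control tumour 4 and at most 0.838 CPM elsewhere. In that tumour the milk protein gene Csn2 was also highest, at 16.1 CPM, against at most 4.23 CPM elsewhere. Whether the levels of Ccl28 and Csn2 are related was not tested. Cxcl17, a mucosal chemokine, reached 1.45 CPM in DOX tumour 5 and at most 0.150 CPM elsewhere. These 3 were picked after their values were seen. Ccl21a, Ccl21b, Ccl19 and Ccl27b share 45.3 to 100% of their 75-base windows with other genes' transcripts, so reads could be split or lost among copies.

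Neighbouring genes did not share a direction throughout. In the CC ligand cluster (chr11:82035571-83664683, 10 members) 6 of 7 tested genes were higher and 1 lower, the median being 0.38 on the log2 scale. Of the CXC ligands on chromosome 5 (chr5:90759360-95961068, 8 members) 1 of 5 tested was higher and 4 lower, with a median of -0.20. The difference between these clusters was not tested.

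Ligand and receptor levels were set against each other across the 10 tumours for 7 pairs on the log2(CPM + 1) scale, and no pair passed after adjustment. Cxcl16 and Cxcr6 had the highest correlation (Pearson's r = 0.66, permutation p = 0.0184, adjusted over the pairs 0.129, Spearman's rho = 0.59, permutation p = 0.0814, adjusted 0.231). It was r = 0.11 without the 2 tumours farthest from the median of Cxcl16, so it rested on them. With the group means subtracted it was r = 0.87 (permutation p = 0.0112, adjusted 0.0787). Ccl2 and Ccr2 gave r = 0.62 (permutation p = 0.0594, adjusted 0.208) and rho = 0.61 (permutation p = 0.0656, adjusted 0.231), with r = 0.38 without 2 tumours. For the other 5 pairs r was 0.31 to 0.51, with adjusted permutation p from 0.309 to 0.380. Without the 2 tumours farthest from the median of the ligand, r went from 0.51 to 0.12 for Cx3cl1 and Cx3cr1, from 0.45 to -0.45 for Ccl3 and Ccr1, from 0.40 to 0.66 for Cxcl12 and Ackr3, from 0.37 to 0.33 for Cxcl2 and Cxcr2 and from 0.31 to 0.40 for Cxcl12 and Cxcr4. Spearman's rho for these was 0.31 to 0.52, with adjusted permutation p from 0.231 to 0.387. With the group means subtracted, r was 0.62 for Ccl3 and Ccr1, 0.59 for Ccl2 and Ccr2 and 0.50 for Cxcl2 and Cxcr2. It was 0.49 for Cx3cl1 and Cx3cr1, 0.24 for Cxcl12 and Ackr3 and 0.09 for Cxcl12 and Cxcr4. Adjusted permutation p for these 6 pairs ran from 0.170 to 0.798.

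**Figure D5:**
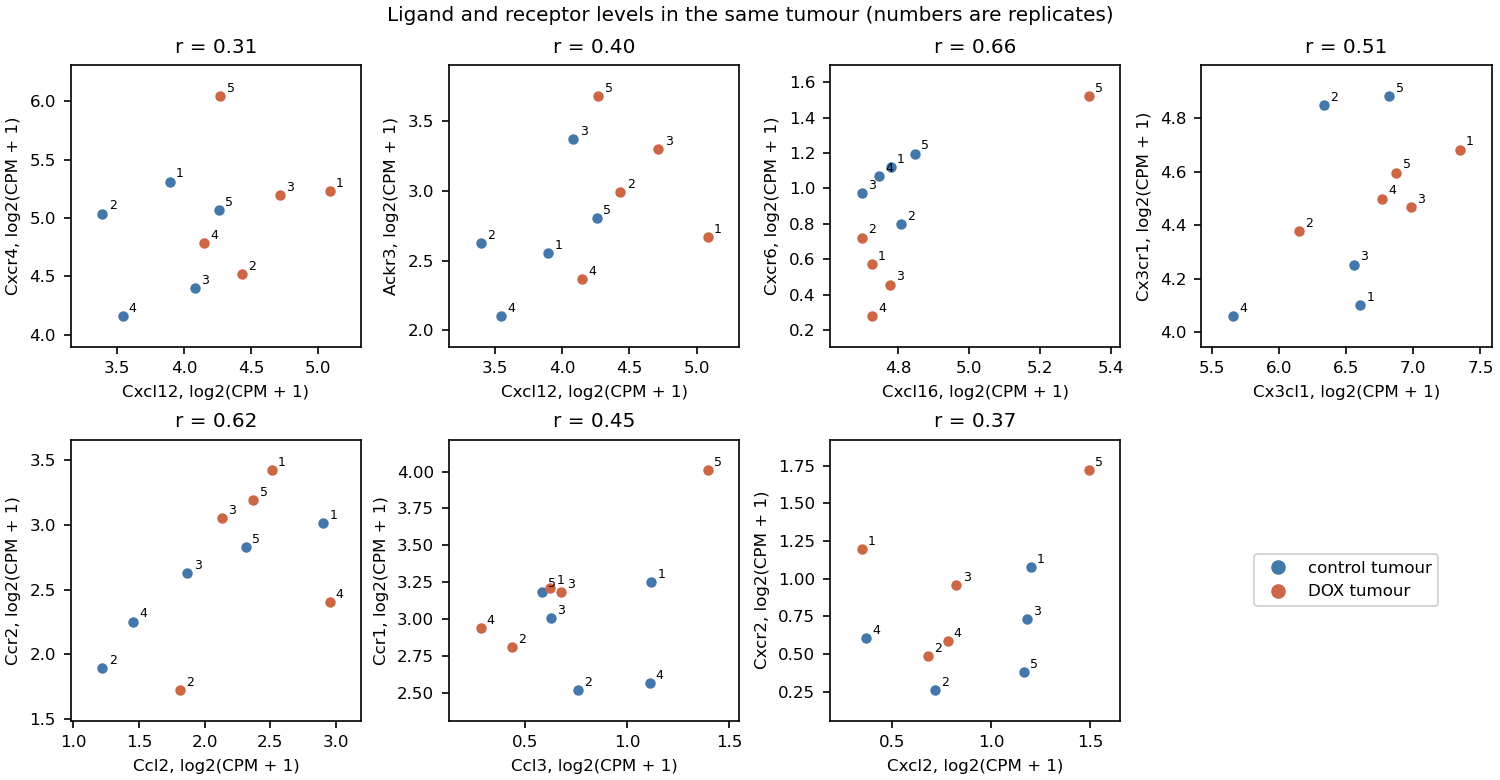
Level of each ligand (x axis) against that of its receptor (y axis), both log2(CPM + 1), for 7 pairs over the 10 tumours, coloured by group, with Pearson's r above each panel. The Cxcl16 and Cxcr6 panel (r = 0.66) has 1 DOX tumour far to the upper right.

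Beyond the ligands and receptors themselves, chemokine-related genes and the signalling path were read from lists, and none of their genes was called. Of 7 tested chemokine-related genes 3 were higher and 4 lower (median -0.0013). Dpp4 is the peptidase that trims and inactivates CXCL12 and several other chemokines. It was 2.28 to 4.98 CPM in controls and 0.862 to 2.05 CPM with DOX, without overlap. Of all genes tested, 1.13% were lower without overlap. The log2 fold change of Dpp4 was -1.09 (SE 0.29, edgeR adjusted p = 0.199). Of 19 receptor signalling genes 15 were higher and 4 lower with a median of 0.05, led by the G protein subunit Gnai2 (0.28, SE 0.10, edgeR adjusted p = 0.247). Of 13 tested NF-kB pathway genes 10 were higher and 3 lower with a median of 0.11, among them the adhesion molecule Icam1 (0.76, SE 0.30, edgeR adjusted p = 0.263). At an unadjusted edgeR p under 0.05 the shares were 4 of 13 for the NF-kB genes and 1 of 19 for receptor signalling. For the chemokine-related genes it was 1 of 7, and these shares stand beside 16% of all genes.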

How the data were processed

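The authors deposited whole-number read counts for each Ensembl gene in 10 tumours, without normalisation. Tools listed in the submitters' processing notes are STAR 2.6.0c, featureCounts, Trimmomatic, bcl2fastq and DESeq2, with the build GRCm38. Per the labels' protocols, whole-tumour RNA was depleted of ribosomal RNA and sequenced as directional single-end reads of 75 bases. Which annotation release was counted, and whether strand was used, is not given in the sources used here. Gene symbols were looked up by identifier (55154 of 55335 found), coordinates and exon lengths were taken from GENCODE M21 (GRCm38), and promoter sequences came from RefSeq (GRCm38.p6, 45 of 57 members matched).

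Groups were compared over all genes with edgeR 4.0.16 in R 4.3.3 (TMM scaling, filterByExpr with a minimum count of 10 and a minimum total of 15, quasi-likelihood test, Benjamini-Hochberg adjustment over 16167 genes, threshold 0.05). The standard error is the log2 fold change divided by the square root of F. The procedure was tested on simulated data. Of genes simulated to change 1.5-, 2- and 4-fold, it called 29.9, 62.7 and 89.4% in the right direction. It made 6 false calls among unchanged genes, and 0 calls when nothing was changed. Alternatives were DESeq2 1.42.0, limma 3.58.1 voom with sample weights, other scalings and filters, a replicate block and leaving out tumours. Levels are CPM, and floors and precision cover counting error only. Pearson and Spearman correlations used log2(CPM + 1) with 100000 resamples, and Hpn an exact test whose smallest p is 0.00794. No 2 libraries of a group agreed within counting noise (20 pairs, chi-square over its degrees of freedom 6.76 to 41.9), and each tumour is 1 sample.

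Members and gene lists were chosen with earlier results of these data known. Members named in full were the 10 with the smallest p, the 8 with the highest level per kb among those with a mean of at least 1 CPM, and their receptor or ligand partners (21 genes). Others were named after their values were seen. Values of 1 tested receptor gene are not reported here, though it is in the counts and medians.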

Additional observations from a re-analysis of the deposited data

Results flagged for a closer look

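In 90 groups of 5 tumours, 1 tumour was compared with the other 4 by the size of its gap (Dixon's criterion, 0.71), which chance alone meets in about 1 of 20 groups of normally distributed values. The groups are different genes read in the same 2 sets of 5 tumours, so they are not independent. Whether CPM follows that distribution was not checked, so the number of hits cannot be set against that rate. The criterion was met 9 times, each time by DOX tumour 5. Among the members these were Ccl8 (17.8 CPM, against 4.87 to 8.60 CPM in the other DOX tumours), Ccr1 (15.1 CPM, against 6.00 to 8.26 CPM), Cxcl16 (39.4 CPM, against 25.0 to 26.4 CPM), Cxcr6 (1.87 CPM, against 0.215 to 0.650 CPM) and Ccl3 (1.63 CPM, against 0.215 to 0.596 CPM). Outside the family they were the interferon-induced transcription factor Irf1 (60.7 CPM, against 33.3 to 37.7 CPM), the kinase gene Jak2 (62.3 CPM, against 34.6 to 40.4 CPM), the endothelial gene Vwf (28.9 CPM, against 3.29 to 10.2 CPM) and the plasma cell gene Jchain (7.67 CPM, against 0.286 to 0.571 CPM).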

How the results depend on the processing

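Of 374 alternative values for 20 named members, 363 kept direction and side of the threshold, and 16 members kept their direction throughout. Over all genes, 0 were called by edgeR, 324 by DESeq2, 775 by limma-voom with sample weights, 7 with the replicate block and 0 to 37 with 1 tumour left out (37 without control tumour 3, 2 without DOX tumour 2). Members called numbered 0 in each of these except limma-voom, with 2 (Cxcl12 and Cxcr6), and 0 with any 1 tumour left out; DESeq2 gave 8 of the 29 no adjusted p. At an unadjusted p under 0.05 there were 3 members, 8 without the filter (of 53 tested), 5 by DESeq2, 12 by limma-voom, 6 with the block and 3 to 6 with 1 tumour left out (6 without control tumour 1, DOX tumour 2 or DOX tumour 5). Genes at that p over the whole table numbered 2592 of 16167 in the main fit and 3230 of 32181 without the filter. They were 2698 of 16151 by DESeq2, 4394 of 16167 by limma-voom, 2771 of 16167 with the block and 1730 to 3462 with 1 tumour left out. The median log2 fold change of the members was 0.28 with the block, 0.066 to 0.47 with 1 tumour left out, and 0.0087 without control tumour 4 and DOX tumour 5. Leaving out that pair reversed Cxcr4 (-0.031), Cxcl16 (-0.058) and Cx3cr1 (-0.061), limma-voom reversed Cx3cr1 (-0.026), and with 1 tumour left out Cxcl16 ran from -0.046 to 0.14, Cx3cr1 from -0.042 to 0.18 and Cxcl2 from -0.65 to 0.022. The correlation of Ccl3 and Ccr1 became -0.45 without 2 tumours. The cause was not tested. Scaling by library size alone split the genes at p under 0.05 into 1565 higher and 742 lower, against 1326 and 1266, shifted the median of all genes to 0.03 and left the members at 2 and 1. The replicate numbers were not treated as pairs in the main fit. Same-numbered tumours correlated at 0.06 to 0.32, all positive but not each over 0.1. Tumours of different number ran from -0.39 to 0.45, the highest being control tumour 5 with DOX tumour 1. These values do not settle whether the numbers mark pairs. Depth limits the 28 untested members most, with at most 156 counts each.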

Other observations

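The B and plasma cell list gave a signal in few tumours. Of its 7 genes, Jchain alone passed the filter (log2 fold change 0.86). It read 7.67 CPM in DOX tumour 5 and 0.286 to 0.571 CPM in the other DOX tumours. The sum ran from 0.361 to 3.36 CPM in controls and from 0.600 to 9.18 CPM with DOX. In some tumours 6 genes, Ms4a1 and Cd79a among them, were at 0. Cxcl13, the ligand that draws B cells into follicles, had 6 counts over all tumours, and its receptor Cxcr5 also had 6.

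Among mammary epithelial markers, 8 of 9 tested genes were higher and 1 lower with DOX (median log2 fold change 0.26), and 0 were called by edgeR, with 3 at an unadjusted p under 0.05. Elf5, a regulator of luminal and alveolar cells, averaged 126 ± 23.0 CPM in controls and 88.6 ± 19.1 CPM with DOX (log2 fold change -0.51, edgeR adjusted p = 0.230). Cdh1, the epithelial cadherin, averaged 259 ± 20.3 CPM and 309 ± 53.2 CPM (0.26, edgeR adjusted p = 0.311).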
